A study of Mus musculus with 24 samples.

Results

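Vehicle-treated MMTV-Wnt1 mammary tumours were profiled by RNA-seq on 2 days of growth, and the 8 libraries of vehicle tumours out of 24 in the study are described here. They were taken by their labels: 4 libraries labelled day 4 and 4 labelled day 8. In the MMTV-Wnt1 mouse strain B6SJL-Tg(Wnt1)1Hev/J, the promoter of mouse mammary tumour virus drives the growth factor gene Wnt1 in mammary epithelium, and tumours arise in the gland. Spontaneous tumours were cut into pieces and grown in C57BL/6J mice, which have an intact immune system, and day 1 was set when a tumour had reached about 200 mm3. Mice then received vehicle by mouth 2 times daily. Dosing lasted 3 days in the day 4 group and 7 days in the day 8 group. What the vehicle contained and the age of the mice were not stated. The other 16 libraries, in 4 groups of 4, came from tumours of the same origin treated on the same schedule with 25 or 50 mg/kg of E7386, a compound that acts on beta-catenin signalling. The labels do not say whether the 4 libraries of a group came from separate mice, or from how many donor tumours, so p-values measure only the spread between these libraries, which may be partly technical. The comparison of the 2 days asks how expression in the tumours differed as they grew without the compound. Length of growth and length of vehicle dosing differed together and cannot be told apart.

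In the canonical Wnt pathway a secreted Wnt protein binds a Frizzled receptor and an LRP co-receptor, beta-catenin is spared from destruction, and it enters the nucleus to switch on target genes through TCF and LEF factors. Wnt1 was found through viral insertions in mouse mammary tumours. Tumours driven by it are known to hold both basal and luminal epithelial cells, a proliferating compartment and host-derived stroma, vessels and immune cells.

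Values are TPM, transcripts scaled to a fixed library total, a relative abundance corrected for transcript length, and each library sums to 1000000. The table keeps no read counts, so the depth of the libraries is unknown and no counting error is given. Between 14496 and 15127 genes reached 1 TPM in a vehicle library. Day 8 replicate 4 stood apart. Its Pearson correlation with the other vehicle libraries over the 15736 genes tested was 0.959 to 0.975 on the log2(TPM + 1) scale, where the others lay at 0.973 to 0.986 among themselves. In this library 148 genes lay at least 1 log2 unit above all 7 others, against 0 to 15 in each other library. Of the results described in the text, those in which it changed a sign or moved a median strongly are given with and without it. Both day 4 replicate 4 and day 8 replicate 3 held far more skeletal muscle transcripts than the rest. Acta1, skeletal muscle actin, was at 49.5 TPM in the first and 79.6 TPM in the second, and at 0.34 to 2.46 TPM in the other 6. Bulk RNA cannot tell fewer cells of a type from less RNA per cell, and this holds for every cell type marker below.

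The sequences of 3 promoters are shown because their genes stand in the comparison of the days: Nfkbia, which encodes the NF-kappa-B inhibitor I-kappa-B-alpha, and 2 genes known to respond to low oxygen, Ppp1r3c (a regulator of glycogen synthesis) and Egln3 (an oxygen-dependent prolyl hydroxylase). Each is the 250 bases upstream of the RefSeq start on GRCm38.p6, on the minus strand, 5′ to 3′, at chr12:55492648-55492897 for Nfkbia, chr19:36736605-36736854 for Ppp1r3c and chr12:54203875-54204124 for Egln3. Capitals mark ACGTG, the core of the hypoxia response element, and GGGANNNNCC, part of the NF-kappa-B consensus, on either strand.
Nfkbia: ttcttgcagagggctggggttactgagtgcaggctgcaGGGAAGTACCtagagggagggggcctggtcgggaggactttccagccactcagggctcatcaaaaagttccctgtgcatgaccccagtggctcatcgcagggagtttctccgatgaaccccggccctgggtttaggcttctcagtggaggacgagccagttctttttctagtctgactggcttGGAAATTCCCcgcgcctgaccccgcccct
Ppp1r3c: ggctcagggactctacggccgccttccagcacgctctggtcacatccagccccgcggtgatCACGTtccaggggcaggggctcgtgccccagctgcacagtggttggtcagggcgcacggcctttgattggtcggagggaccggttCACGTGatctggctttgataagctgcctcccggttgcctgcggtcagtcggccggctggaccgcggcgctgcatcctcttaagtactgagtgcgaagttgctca
Egln3: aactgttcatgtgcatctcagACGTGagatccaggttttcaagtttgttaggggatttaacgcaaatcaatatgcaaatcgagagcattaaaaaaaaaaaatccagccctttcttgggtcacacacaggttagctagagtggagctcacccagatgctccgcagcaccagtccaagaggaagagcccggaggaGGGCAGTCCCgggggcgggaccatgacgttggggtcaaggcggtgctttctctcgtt
The Nfkbia sequence held 2 matches of GGGANNNNCC and none of ACGTG. The Ppp1r3c sequence held 3 of ACGTG, a pair of which overlap on opposite strands, and none of GGGANNNNCC. The Egln3 sequence held 1 of each, which do not overlap. Over 32851 mouse promoters of the same length, 16.6% held ACGTG and 17.6% held GGGANNNNCC. A match is a string of letters and not a shown binding site.

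The tumours read as mammary epithelium with an active Wnt1 gene on both days. Wnt1 itself was at 105, 107, 149 and 153 TPM in day 4 replicates 1 to 4 and at 164, 186, 119 and 94.6 TPM in day 8 replicates 1 to 4. The groups overlapped, and the difference of 0.10 (SE 0.29) on the log2(TPM + 1) scale, day 8 minus day 4, did not pass (adjusted p = 0.922, limma). Without day 8 replicate 2 it was -0.04. Normal mammary gland hardly transcribes the gene, and the table does not separate transcripts of the transgene from those of the native gene at chr15:98789857-98793837 (GRCm38). Among the other Wnt genes, all on the per-length TPM scale, Wnt5a was next at 48.0 to 84.2 TPM, then Wnt6 at 32.1 to 52.8 TPM and Wnt5b at 19.96 to 33.2 TPM. Wnt5a and Wnt6 overlapped in range, as did Wnt6 and Wnt5b. Wnt3 and Wnt7a stayed at or below 0.04 TPM in all 8.

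Receptors and inner pathway genes differed in how steady they were. Lrp5, a Wnt co-receptor, lay between 88.6 and 96.2 TPM, with a within-day SD of 0.04 log2 units. Ctnnb1, which encodes beta-catenin, lay between 506 and 714 TPM and averaged 564 ± 51 TPM on day 4 and 653 ± 69 TPM on day 8 (SD, n = 4); it overlaps Ulk4 on the opposite strand. Whether the counting used strand was not stated, so genes with such a partner, among them Ctnnb1, Wnt5b, Ccnd1, Tagln, Acta1, Tnnc2 and Tmem213, are uncertain. Of the targets of the pathway, Nkd2 (an antagonist of Dishevelled) was at 375 to 845 TPM, Wif1 (a secreted Wnt inhibitor) at 200 to 266 TPM, Tcf7 (a TCF factor) at 127 to 223 TPM and Axin2 (a scaffold of the beta-catenin destruction complex and a direct target) at 33.7 to 54.7 TPM. Lef1, by contrast, was below 1.3 TPM in every vehicle library and Lgr5, a stem cell receptor for R-spondins, between 1.57 and 4.91 TPM. Dkk1 and Sp5, also common targets, were below 0.1 TPM. The targets thus ranged widely in level, with 18 of 22 members past the filter of 1 TPM in at least 4 of the 24 libraries.

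Markers of both epithelial lineages were detected. Keratin 14 (Krt14, basal) was at 569 to 988 TPM and keratin 5 (Krt5, basal) at 422 to 702 TPM, against 194 to 364 TPM for keratin 8 (Krt8) and 291 to 509 TPM for keratin 18 (Krt18), the luminal pair. Epcam, an epithelial adhesion molecule, was at 382 to 497 TPM. The receptors of ovarian steroids were low: Esr1 (oestrogen receptor) at most 1.5 TPM and Pgr (progesterone receptor) at 1.89 to 3.27 TPM. Among the milk genes, kappa-casein (Csn3) was at 85.0 to 414 TPM and lactoferrin (Ltf) at 186 to 1462 TPM, while whey acidic protein (Wap) was at 0 in 7 libraries and 0.08 TPM in 1. All 22 basal and all 25 luminal markers passed the filter. Of other cell types, 25 of 25 macrophage, 18 of 19 fibroblast and 22 of 23 endothelial markers passed, but 13 of 24 T and NK cell markers and 3 of 9 mast cell markers. Cd8a, which marks cytotoxic T cells, was at 0.06 to 0.61 TPM.

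Protein synthesis genes led the abundance ranking. Of the 15 nuclear protein-coding genes with the highest mean TPM, Eef1a1 (translation elongation) came first at 14654 to 17647 TPM, followed by Actb (cytoplasmic actin) at 6288 to 8337 TPM and Rplp1 at 5378 to 6618 TPM. Others are ribosomal protein genes (Rps24, Rps26, Rps2, Rpl23a, Rps12, Rplp0, Rpl32, Rps10 and Rps15), and Ptma and the chaperone Hspa8 are also in the list. Many of these have near-identical processed copies in the genome, so their levels are uncertain to the extent that reads were split. Mitochondrially encoded genes took 9.07% to 11.3% of the total, with mt-Atp8 alone at 4.27% to 5.48% of it. Their mean share was 10.4% ± 0.61 on day 4 and 10.1% ± 0.78 on day 8 (SD, n = 4), a difference of -0.30 percentage points (exact permutation test, two-sided, p = 0.571, adjusted 0.886 over 2 such tests, smallest possible 0.0286). Without day 8 replicate 4 the difference was 0.05. The number of genes at 1 TPM differed by 61 (exact permutation p = 0.886).

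No gene passed the test between day 8 and day 4. Of 15736 genes, 0 (percent called 0) had an adjusted p of 0.05 or less in limma, and the smallest was 0.281. At an unadjusted p under 0.05 there were 781 higher on day 8 (4.96% of genes) and 968 lower (6.15%), or 11.1% in all. The 4 libraries of one day lay wholly above the 4 of the other for 284 genes higher (1.8%) and 397 lower (2.52%) on day 8, or 4.33% in all. The counts of genes past the threshold were also 0 with other scalings, pseudocounts and filters, and with the vehicle libraries alone. Weighting libraries by how closely they followed their own group mean gave day 8 replicate 4 a weight of 0.28. Such weights come from the same values and are not a measure of RNA quality. With them 5 genes passed: Atf3, Nfkbia and Sik1 higher and Map1b and Rasgrp2 lower. Without day 4 replicate 3 the predicted gene Gm13797 passed, and without day 8 replicate 4 Rasgrp2 passed. The median difference over all genes was 0.01 and its median size 0.11 log2 units, beside a median SE of 0.13; 89 genes (0.566%) differed by 1 log2 unit or more.

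**Figure D1:**
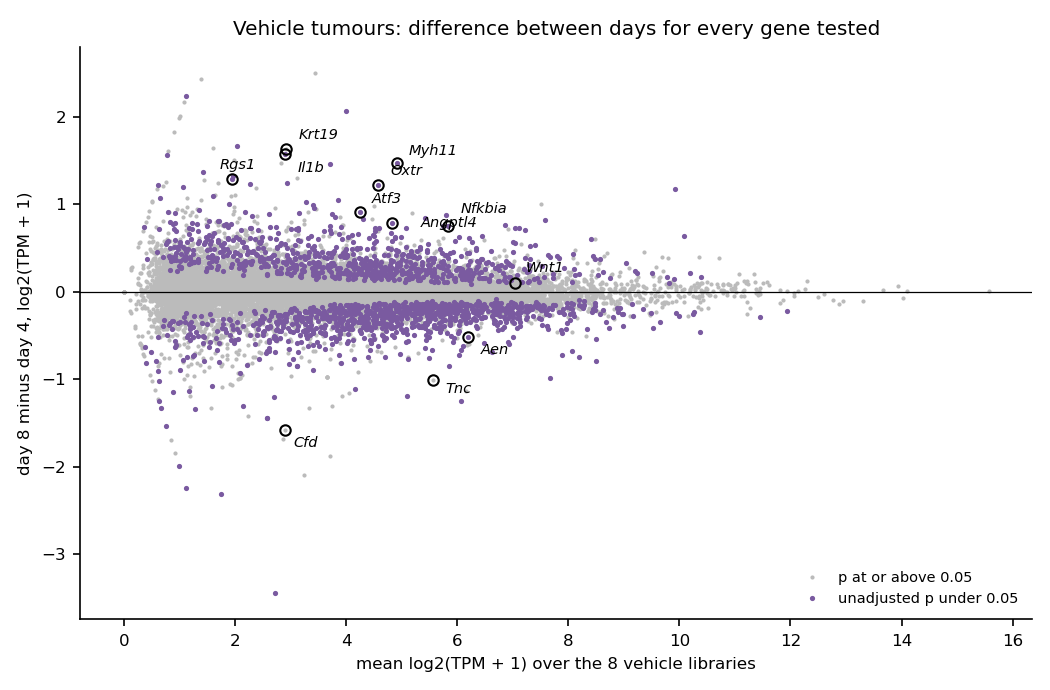
Difference between days (day 8 minus day 4, log2(TPM + 1)) against mean log2(TPM + 1) over the 8 vehicle libraries, 1 point per gene for the 15736 genes tested. Purple points had an unadjusted p under 0.05 (1749 genes), circled genes are named, and none passed after adjustment.

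The 12 genes named as higher on day 8 are given first, none of which passed. They had the smallest p among genes without overlap between the days. Their separation was thus fixed by the choice and is not a result. Predicted genes were not named by the rule. Il1b, which encodes the cytokine interleukin-1 beta (chr2:129364570-129371139), was at 2.77, 3.56, 3.88 and 3.20 TPM on day 4 and at 8.54, 8.28, 9.15 and 30.3 TPM on day 8. All day 8 libraries lay above all day 4 libraries, and replicate 4 was far above the other 3. The means were 3.35 ± 0.48 and 14.1 ± 10.8 TPM (SD, n = 4), and the difference was 1.58 (SE 0.33; adjusted p = 0.281, limma), or 1.16 without replicate 4. Of 17 neutrophil markers, a list that includes Il1b itself, 8 were tested, and all 8 had their highest value in that library. So did 32.7% of all genes and 18 of 25 macrophage markers. S100a8 (a calprotectin subunit) was at 238 TPM there against 9.56 to 50.9 TPM elsewhere. The summed level of the neutrophil list was 396 TPM in it, against 27.8 to 79.2 TPM on day 4 and 42.4 to 75.3 TPM in the other day 8 libraries. The other 9 neutrophil markers, among them Cxcr2, Mpo, Ly6g and Elane, were below the filter. Ly6g and Elane were at 0 or below 0.1 TPM throughout. Il1b lay above every day 4 value in day 8 replicates 1 to 3 too, as its choice required. The part of neutrophil transcripts in the Il1b values of either day was not tested.

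Atf3, a transcription factor of the stress and immediate early response (chr1:191170296-191218039), was at 11.99, 11.9, 14.1 and 13.4 TPM on day 4 and at 34.8, 23.5, 19.98 and 24.02 TPM on day 8. The groups did not overlap, and replicate 1 was the highest of day 8. The difference was 0.92 (SE 0.20; adjusted p = 0.281) and 0.94 without replicate 4. Nfkbia, whose promoter is printed above, was at 41.3, 46.3, 44.5 and 40.7 TPM on day 4 and at 85.6, 68.9, 49.4 and 99.0 TPM on day 8. Its day 8 values spread widely, with replicate 3 just above the day 4 range, and the difference was 0.75 (SE 0.17; adjusted p = 0.281). Sik1, a salt-inducible kinase, was tight on day 4 at 49.0 to 54.8 TPM and read 85.7, 88.6, 64.7 and 84.9 TPM on day 8, with replicate 3 lowest. Its difference was 0.62 (SE 0.14; adjusted p = 0.281).

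Angptl4, a secreted inhibitor of lipoprotein lipase that responds to low oxygen and to fatty acids (chr17:33773750-33781830), was at 27.3, 22.7, 14.6 and 19.9 TPM on day 4 and at 34.3, 36.4, 29.5 and 47.2 TPM on day 8. The lowest day 8 library stood above the highest day 4 library by a small margin, and the difference was 0.79 (SE 0.17; adjusted p = 0.281). Pdk4, a kinase that turns off pyruvate dehydrogenase, was at 2.85 to 4.03 TPM on day 4 and 6.83 to 7.76 TPM on day 8, a difference of 0.89 (SE 0.20). Gabrp, a GABA receptor subunit found in basal-like mammary tumours, averaged 118 ± 23 and 193 ± 36 TPM (difference 0.71, SE 0.16). The other 5 named by the rule were the G-protein regulator Rgs1 (difference 1.29; 0.90 without day 8 replicate 4, where it was 12.7 TPM), the sorting receptor gene Sorcs1 (0.72), the linker histone Hist1h1c (0.62), the zinc finger gene Zkscan14 (0.54) and the immediate early nuclear protein Csrnp1 (0.50). None passed, and all 12 had an adjusted p of 0.281.

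**Figure D2:**
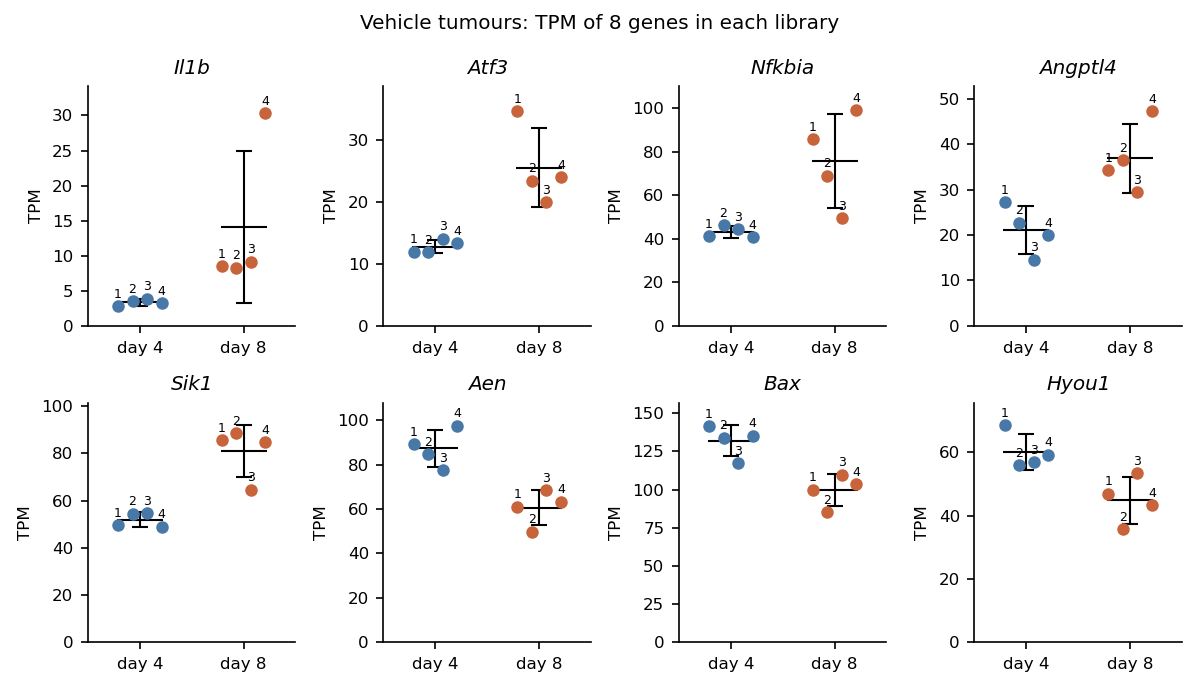
TPM of 8 genes in each vehicle library on day 4 (blue) and day 8 (orange), numbered by replicate, with the mean and SD of the 4 (line and bar). Il1b, Atf3, Nfkbia, Angptl4 and Sik1 lay higher in all day 8 libraries, and Aen, Bax and Hyou1 lower, without passing the adjusted test. All but Bax and Hyou1 were chosen for such separation. Il1b in day 8 replicate 4 was 30.3 TPM.

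The 12 genes named as lower on day 8 were chosen in the same way. They differed by -0.24 to -0.52 on the log2(TPM + 1) scale, where the 12 higher differed by 0.50 to 1.58. Aen, a nuclease induced by p53 (chr7:78895854-78911209), was at 89.2, 84.8, 77.5 and 97.5 TPM on day 4 and at 61.1, 49.8, 68.4 and 63.3 TPM on day 8. The groups did not overlap, and the difference was -0.52 (SE 0.13; adjusted p = 0.281), or -0.55 without day 8 replicate 4. Ttc39a, a tetratricopeptide repeat gene, was at 48.0, 49.1, 46.5 and 51.0 TPM on day 4 and 40.3, 29.9, 38.6 and 37.1 TPM on day 8 (difference -0.41, SE 0.09). Sox13, a Sox-family transcription factor, averaged 159 ± 8 and 121 ± 9 TPM (difference -0.39, SE 0.09). Bpgm, which makes 2,3-bisphosphoglycerate, averaged 38.8 ± 6.2 and 28.1 ± 2.2 TPM (difference -0.44). Polr3k, a subunit of RNA polymerase III, differed by -0.30. Gtf3c6, a subunit of a factor of that polymerase, differed by -0.24. The day 4 range of Gtf3c6 was 74.7 to 82.3 TPM and its day 8 range 63.2 to 67.9 TPM. The rest were Elp6 of the Elongator complex (-0.42), the ubiquitin ligase Mid1 (-0.42), Ccdc18 (-0.40), the glycosyltransferase Alg8 (-0.38), the small nucleolar RNA host gene Snhg5 (-0.31) and the peptidyl-prolyl isomerase Ppil3 (-0.26). Mid1 and Ppil3 overlap transcribed genes on the opposite strand and are uncertain. Each of the 12 lower genes had an adjusted p of 0.281.

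Among the 40 gene lists, 17 had a median difference above 0 and 23 below, beside a median of 0.01 over all genes, of which 51.4% were positive. No member of any list passed. The counts below are of members at an unadjusted p under 0.05, to be read against 4.96% of all genes higher and 6.15% lower.

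Genes of the response to low oxygen were higher on day 8 in 24 of 25 cases, with a median of 0.28, and the median without day 8 replicate 4 was 0.26 (23 of 25). Of the members, 9 were higher at an unadjusted p under 0.05 and 1, Ddit4 (an inhibitor of mTOR signalling), lower. Ppp1r3c was at 1.01, 0.96, 3.10 and 1.35 TPM on day 4 and 6.29, 11.1, 4.13 and 2.31 TPM on day 8, with replicate 4 inside the day 4 range (difference 1.32, SE 0.42; adjusted p = 0.387). Egln3 was at 101 to 118 TPM on day 4 and 123 to 184 TPM on day 8 without overlap (0.45, SE 0.20). Ero1l, an oxidase of the endoplasmic reticulum, was at 35.2, 40.9, 48.8 and 41.2 TPM on day 4 and at 64.8, 39.4, 62.3 and 53.7 TPM on day 8, with replicate 2 inside the day 4 range (0.38, SE 0.15). Bnip3l, a mitophagy receptor, lay between 184 and 208 TPM on day 4 and between 212 and 262 TPM on day 8 without overlap (0.20, SE 0.09). Stc2, a secreted glycoprotein, and Mxi1, a MYC antagonist, differed by 0.73 and 0.25 with overlapping ranges, and Ankrd37 by 0.66, which is uncertain because it overlaps Ufsp2 on the opposite strand. Angptl4, above, and Ndrg1 completed the 9. Ndrg1, a stress-responsive gene, averaged 140 ± 22 and 183 ± 38 TPM with overlapping ranges (0.38, SE 0.17). Vegfa, the vascular growth factor, was at 111, 150, 203 and 191 TPM on day 4 and 263, 150, 180 and 215 TPM on day 8 (0.31, SE 0.24; adjusted p = 0.642). Of the 21 list genes with a RefSeq promoter, 15 (71.4%) held ACGTG within 250 bases, beside 24.3% of the 10703 genes tested that had one; the list consists of known targets of the hypoxia factors, so this describes its choice. Glycolysis genes, many also known to respond to low oxygen, had a median of 0.00 with 10 of 19 positive and none at an unadjusted p under 0.05. The library means of the hypoxia list ran from 4.74 to 5.03 on day 4 and from 4.98 to 5.31 on day 8, so the groups overlapped.

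Of 22 basal markers, 8 were higher on day 8 at an unadjusted p under 0.05 and none lower, and the list median was 0.18 (0.13 without day 8 replicate 4). Of the 8, 6 belong to the contractile programme of myoepithelial and smooth muscle cells: Acta2 (smooth muscle actin), Myh11 (smooth muscle myosin), Cnn1 (calponin), Mylk (myosin light chain kinase), Tagln (transgelin) and Oxtr (oxytocin receptor). Cnn1 was at 33.9, 49.1, 52.2 and 29.5 TPM on day 4 and at 73.1, 115, 53.2 and 67.4 TPM on day 8 (0.87, SE 0.27; adjusted p = 0.387). Acta2 was at 807, 983, 1003 and 725 TPM on day 4 and at 1313, 1913, 1125 and 1200 TPM on day 8 (0.64, SE 0.26; adjusted p = 0.417). Both had no overlap between the days, with day 8 replicate 2 highest and replicate 3 lowest. Among the other members, none at an unadjusted p under 0.05, the keratins went both ways: Krt15 differed by 1.00 (SE 0.52), Krt6a by 0.41, Krt14 by 0.28 and Krt17 by -0.28. Krt5 differed by 0.09 (-0.03 without day 8 replicate 1 and -0.01 without day 4 replicate 1), and of the transcription factors Trp63 by -0.03, Snai2 by -0.03 and Sox10 by 0.01. The laminin chains Lama3 (0.40) and Lamb3 (0.63) made up the other 2 of the 8; Lamb3 overlaps G0s2 on the opposite strand. Of the pericyte markers, which mark other contractile cells, 6 of 9 were positive, their median was 0.09 (-0.10 without day 8 replicate 4), none reached an unadjusted p under 0.05, and Rgs5, the defining one, averaged 87.9 and 89.5 TPM. Their summed level was 251 to 310 TPM on day 4 and 235 to 371 TPM on day 8, and their part in the basal values was not tested.

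Luminal markers were positive in 23 of 25 with a median of 0.19 (0.14 without day 8 replicate 4, 17 of 25), yet only Ehf, an epithelial ETS factor, reached an unadjusted p under 0.05 (314 ± 20 and 410 ± 73 TPM; 0.37, SE 0.14). Krt8 was at 208, 194, 315 and 250 TPM on day 4 and 349, 364, 363 and 203 TPM on day 8. Day 8 replicates 1 to 3 lay above the day 4 range and replicate 4 within it. Milk protein genes were positive in 6 of 9, with a median of 0.24 (0.06 without day 8 replicate 4), 1 higher and 1 lower at an unadjusted p under 0.05. The higher one, Mfge8, a milk fat globule protein, was at 432 to 507 TPM on day 4 and 529 to 666 TPM on day 8 without overlap (0.32, SE 0.13). The lower one, Csn3, was at 191 to 414 TPM on day 4 and 85.0 to 276 TPM on day 8 (-0.72, SE 0.34; adjusted p = 0.447).

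Cholesterol synthesis genes were lower on day 8 in 19 of 20, with a median of -0.34 (-0.27 without day 8 replicate 4) and 8 members at an unadjusted p under 0.05. Fdps, which makes farnesyl diphosphate, was at 82.1, 68.4, 77.5 and 66.2 TPM on day 4 and 54.2, 40.3, 65.9 and 39.0 TPM on day 8, without overlap (-0.58, SE 0.20; adjusted p = 0.417). Replicates 2 and 4 of day 8 were the low ones, and replicate 3 lay just under the day 4 range. Srebf2, which encodes a sterol-responsive factor that drives these genes, was at 81.7 to 87.8 TPM on day 4 and 67.8 to 83.3 TPM on day 8. Fatty acid synthesis genes had a median of -0.05 with 2 of 14 lower at an unadjusted p under 0.05, both without overlap. Fasn, fatty acid synthase, was at 125 to 133 TPM on day 4 and 93.4 to 116 TPM on day 8 (-0.31, SE 0.10), and Scd2, a desaturase, at 208 to 253 TPM and 153 to 204 TPM (-0.40, SE 0.14).

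Chaperones of the endoplasmic reticulum had 9 of 17 members lower at an unadjusted p under 0.05 and 1 higher, with a median of -0.20 (-0.24 without day 8 replicate 4). Hyou1, a luminal chaperone, was at 68.4, 56.0, 56.8 and 59.2 TPM on day 4 and 46.9, 35.7, 53.4 and 43.2 TPM on day 8 (-0.43, SE 0.12; adjusted p = 0.352). Hspa5 (BiP), the main chaperone there, averaged 376 ± 37 and 282 ± 49 TPM (-0.42, SE 0.14; adjusted p = 0.399). The exception, Dnajb9, a co-chaperone of BiP, was at 23.6 to 24.5 TPM on day 4 and at 27.7, 32.4, 26.2 and 36.5 TPM on day 8 (0.33, SE 0.09; adjusted p = 0.332). Targets of p53 went both ways, 4 of 16 lower and 2 higher at an unadjusted p under 0.05. Bax, an executor of apoptosis, was at 117 to 142 TPM on day 4 and 85.2 to 110 TPM on day 8 without overlap (-0.41, SE 0.10; adjusted p = 0.281), while Btg2, an antiproliferative gene, was at 17.0 to 19.2 TPM and 19.9 to 31.6 TPM (0.35, SE 0.13). Zmat3, an RNA-binding p53 target, was also lower without overlap, at 25.1 to 35.6 TPM and 20.6 to 24.4 TPM (-0.37, SE 0.11), and Fas, a death receptor, was at 1.71 to 3.34 TPM and 2.97 to 5.18 TPM (0.61, SE 0.23). Trp53 itself was at 181 to 187 TPM on day 4 and 154 to 184 TPM on day 8 (-0.14, SE 0.05). Hras, a proto-oncogene often mutated in Wnt1 tumours, averaged 118 ± 6.9 and 101 ± 9.4 TPM (-0.22).

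All 38 proliferation genes had a negative difference, with a median of -0.33, and 9 of 38 were lower at an unadjusted p under 0.05, but much of the median lay in 1 library. Day 8 replicate 4 had the lowest value of the 8 for 37 of the 38, where 17.2% of all genes were lowest in it, and without it the median was -0.13 with 3 of 38 positive. Mki67, a marker of cycling cells, was at 120, 114, 159 and 147 TPM on day 4 and 136, 106, 136 and 68.0 TPM on day 8 (-0.31, SE 0.18; -0.09 without replicate 4). Of the G1 to S genes, E2f1 was at 16.8, 14.8, 19.0 and 16.2 TPM on day 4 and 12.6, 9.85, 14.7 and 8.71 TPM on day 8 (-0.53, SE 0.16; adjusted p = 0.387; -0.41 without replicate 4), the 1 member without overlap. Day 8 replicates 2 and 4 were the low libraries for proliferation as for cholesterol synthesis.

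Wnt target genes were lower in 15 of 18, with a median of -0.10 (-0.13 without day 8 replicate 4). Tcf7 alone reached an unadjusted p under 0.05, at 192 to 223 TPM on day 4 and 207, 127, 190 and 136 TPM on day 8 (-0.38, SE 0.17). Axin2 was at 47.5, 50.8, 39.8 and 54.7 TPM on day 4 and at 33.7, 38.8, 34.4 and 48.9 TPM on day 8, with replicates 1 and 3 of day 4 inside the day 8 range and replicate 4 of day 8 inside the day 4 range (-0.31, SE 0.16; adjusted p = 0.477). Myc differed by -0.22 and Ccnd1, cyclin D1, by -0.09. Ligands and receptors had a median of -0.01. The Frizzled receptors Fzd7 and Fzd10 went opposite ways, Fzd7 from 76.9 ± 5.1 to 89.6 ± 7.4 TPM (0.22, SE 0.08) and Fzd10 from 10.1 ± 0.7 to 7.24 ± 0.89 TPM (-0.44, SE 0.18), neither past the test (adjusted p = 0.417 for both).

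The sign of most immune lists depended on day 8 replicate 4. Type I interferon genes had a median of 0.23 with it and -0.14 without it, chemokines 0.28 and -0.20, and macrophage markers 0.12 and -0.13. Neutrophil markers had 0.28 and -0.18, T and NK cell markers 0.03 and -0.28, and antigen presentation genes 0.08 and -0.07. In that library all 22 interferon genes and 18 of 19 antigen presentation genes had the highest value of the 8, beside 32.7% of all genes. Cd74, the class II invariant chain, was at 336 to 658 TPM on day 4, at 261, 382 and 333 TPM in day 8 replicates 1 to 3 and at 1350 TPM in replicate 4. Cxcl9, an interferon-gamma-induced chemokine, was at 6.57 to 9.04 TPM on day 4 and at 1.26, 1.38, 6.21 and 52.1 TPM on day 8, so the difference was -0.41 with and -1.40 without replicate 4. Ccl21a, a lymphoid chemokine with near-identical copies, was at 41.0 TPM in replicate 4 and at most 1.65 TPM elsewhere. No immune list had more than 2 members at an unadjusted p under 0.05. Of these, Cx3cl1, an adhesive chemokine, was at 20.98, 20.7, 36.8 and 22.95 TPM on day 4 and 40.8, 43.2, 33.0 and 38.3 TPM on day 8 (0.63, SE 0.19; adjusted p = 0.387). Cxcl1, a neutrophil-attracting chemokine, was at 0.29 to 1.29 TPM on day 4 and at 8.60, 1.34, 1.22 and 6.19 TPM on day 8 (1.37, SE 0.43; adjusted p = 0.387).

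Immediate early genes, the fast response to growth factors and stress, were positive in 15 of 20, with a median of 0.20 that was 0.05 without day 8 replicate 4. Besides Atf3, those at an unadjusted p under 0.05 were Jund, an AP-1 subunit (102 to 119 TPM and 122 to 155 TPM, no overlap), the orphan receptor Nr4a1 (0.42) and the zinc finger factor Klf6 (0.27). Cytosolic heat shock genes had a median of -0.16, with 3 of 14 lower at an unadjusted p under 0.05. Among them Hsph1, a co-chaperone of Hsp70, was at 83.7, 66.99, 60.8 and 69.97 TPM on day 4 and at 43.96, 44.95, 66.6 and 43.6 TPM on day 8, with replicate 3 alone inside the day 4 range (-0.50, SE 0.16; adjusted p = 0.387).

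Of the stromal lists, fibroblast markers had a median of -0.25 (-0.44 without day 8 replicate 4), with none of 18 at an unadjusted p under 0.05. Of 30 collagen and matrix genes 27 were negative, with a median of -0.20 (-0.36 without day 8 replicate 4). Of the 30, 2, a share near that of all genes, were lower at an unadjusted p under 0.05. They were Col18a1, a basement membrane collagen (-0.39), and Col8a1 (-0.60). Col18a1 overlaps Slc19a1 on the opposite strand. Without overlap between the days, 3 of the 30 lay lower, beside 2.52% of all genes. Col1a1, a fibrillar collagen with a within-day SD of 0.78, was at 589, 278, 338 and 372 TPM on day 4 and at 117, 193, 429 and 526 TPM on day 8 (-0.50; adjusted p = 0.761). Day 8 replicate 1 was lowest for the fibroblast, matrix, endothelial and macrophage lists. Endothelial markers had a median of -0.03 (-0.25 without day 8 replicate 4, where 17 of 22 had their highest value), and Pecam1, an endothelial adhesion molecule, differed by -0.04 (-0.29 without day 8 replicate 4, 0.24 without day 8 replicate 1 and 0.00 without day 4 replicate 1). Vessel tip genes had a median of 0.30 (0.12 without day 8 replicate 4), with Esm1 (0.52), Cxcr4 (0.44) and Trp53i11 (0.37) higher at an unadjusted p under 0.05.

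**Figure D3:**
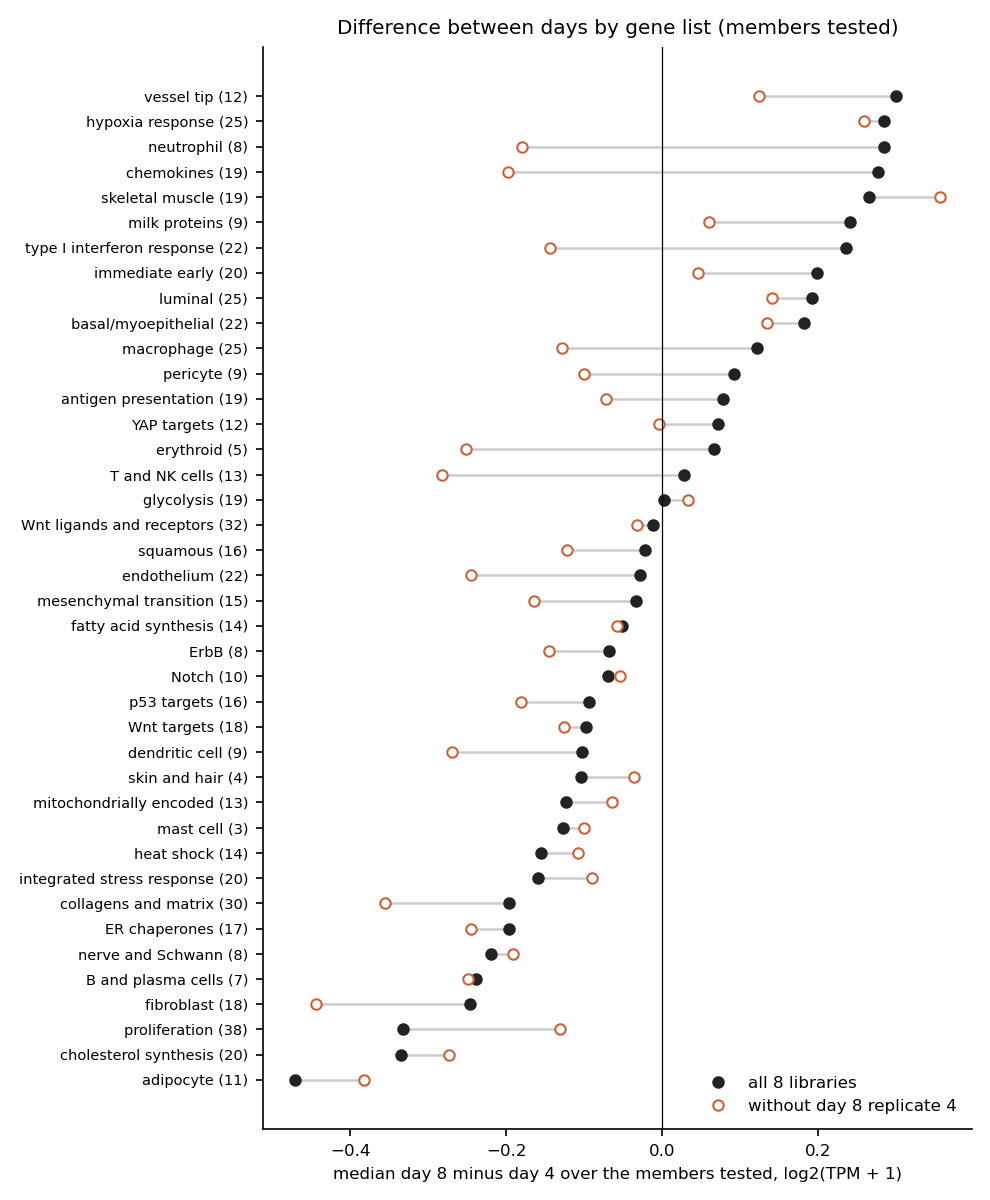
Median difference between days (day 8 minus day 4, log2(TPM + 1)) of the members tested in each of 40 gene lists, their number in brackets, with all 8 vehicle libraries (filled) and without day 8 replicate 4 (open). The hypoxia response stayed near 0.28 and 0.26, cholesterol synthesis near -0.34 and -0.27, while neutrophil, chemokine and interferon medians lay on the other side of 0 without it.

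**Figure D4:**
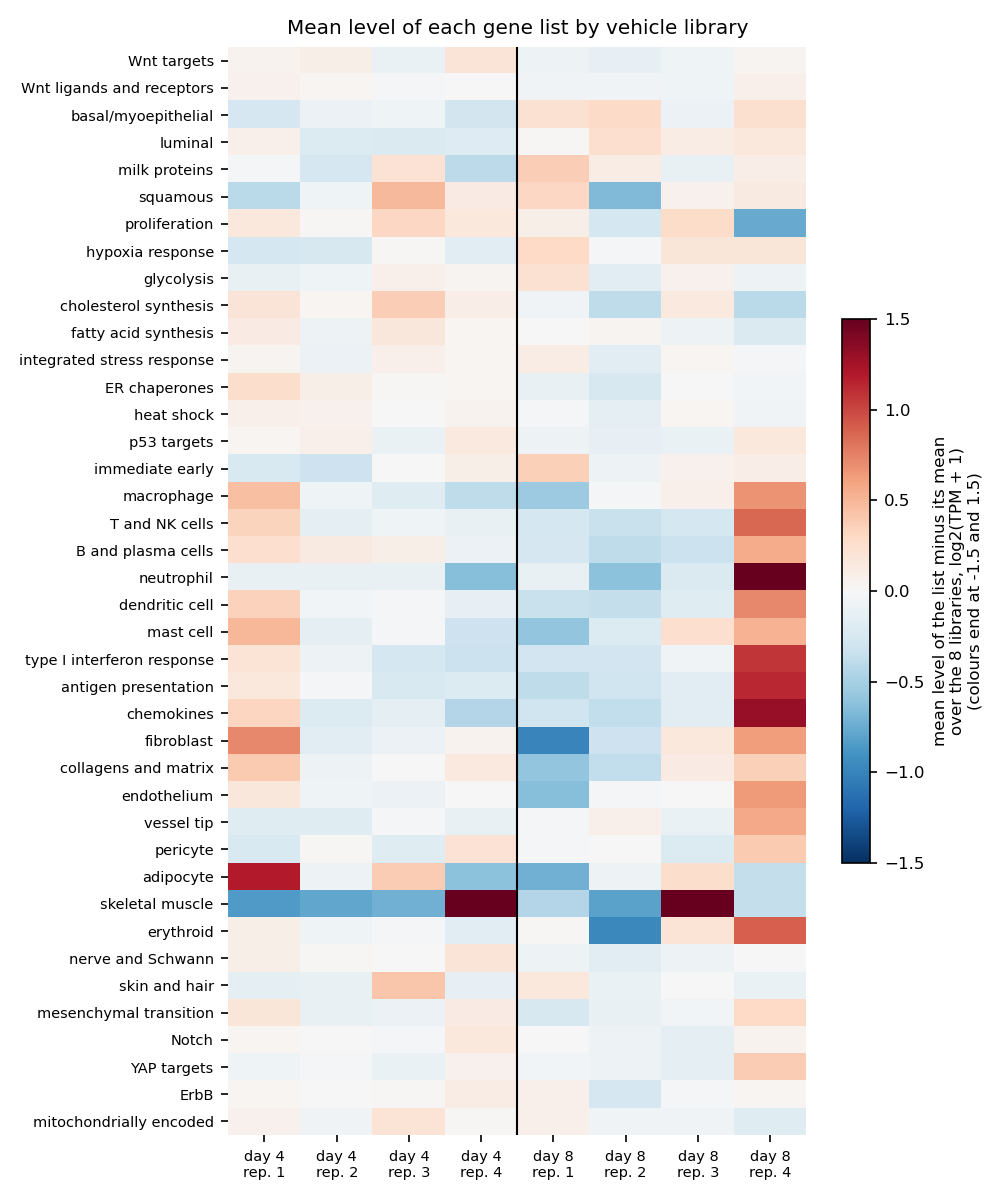
Mean level of each gene list in each vehicle library, as the difference from its mean over the 8 libraries in log2(TPM + 1) units. Red is above and blue below that mean; day 8 replicate 4 stands out in the immune lists and in proliferation, and day 4 replicate 4 and day 8 replicate 3 in skeletal muscle.

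The SD between single libraries of the same day was larger than the difference between the day means for 71.0% of genes. Means of 4 vary less than single libraries, so this share does not show that the days were alike. The median SD within a group, on the log2(TPM + 1) scale, was 0.14 on day 4 and 0.20 on day 8, and 0.15 on day 8 without replicate 4; in the 4 treated groups it was 0.14 to 0.18. Of 11489 genes with a mean of at least 5 TPM, 66.8% had a within-day SD (both days pooled) under 0.2 and 99 an SD over 1, of which 56 were protein-coding. Of the 12 genes of greatest spread, 11 were short noncoding genes or pseudogenes: Mir8114, Mir8103, Gm22643, Rny3, Gm27762, Snord21, Snord22, Gm23455, Gm23497, n-R5s197 and Gm10243. Mir8114 (SD 3.18) was at 124 TPM in 1 library and 0 in 5. All of the 11 but Rny3 overlap another gene on the same strand, and each is listed at 0 in at least 1 library. The remaining gene was Acta1 (SD 2.57).

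A ranking of protein-coding genes alone, added after these values were seen, fell into sets that were high in the same libraries. Muscle genes formed the first: Tnnt3 (troponin T) was at 25.9 TPM in day 4 replicate 4, 36.0 TPM in day 8 replicate 3 and at most 3.36 TPM elsewhere, with Myl1, Tnnc2, Tnni2 and Mylpf alike. Fat cell genes were the second. Cfd (adipsin) was at 68.3, 11.8, 14.7 and 1.02 TPM on day 4 and at 0.08, 7.40, 22.1 and 0.65 TPM on day 8, and the summed adipocyte list was highest in day 4 replicate 1 (276 TPM against 108 to 165 TPM). Their part in the other results was not tested. An epithelial set had another order: keratin 19 (Krt19) was at 30.0, 1.47, 0.99 and 1.27 TPM on day 4 and at 2.51, 24.7, 34.8 and 8.83 TPM on day 8, and Cited1, a hormone-responsive luminal cofactor, was high in the same 3 libraries at 8.68, 6.12 and 9.29 TPM and at most 1.35 TPM in the others. Krt19 differed by 1.63 between the days without passing (SE 0.84; adjusted p = 0.480).

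Further genes had patterns of their own. Foxi1, a transcription factor of ion-transporting cells, was at 0.53, 0.11, 7.55 and 1.16 TPM on day 4 and 12.02, 21.98, 3.80 and 0.40 TPM on day 8. Crct1, a cornified envelope gene, and the squamous protease Klk7 were both highest in day 4 replicate 3, at 26.9 and 59.1 TPM, and both had their lowest pair of values in day 4 replicate 1 and day 8 replicate 2. Gpnmb, Entpd8, Pamr1 and Tmem213 were all highest in day 8 replicate 4, and lowest in day 4 replicate 3 or day 8 replicate 3. Of genes not chosen for their spread, the within-day SD was 0.11 for Epcam, 0.14 for Ctnnb1, 0.23 for Krt14 and 0.37 for Wnt1, beside a median of 0.18 over all genes. The median SD of list members was 0.24 for Wnt targets, 0.27 for basal and 0.32 for luminal markers.

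**Figure D5:**
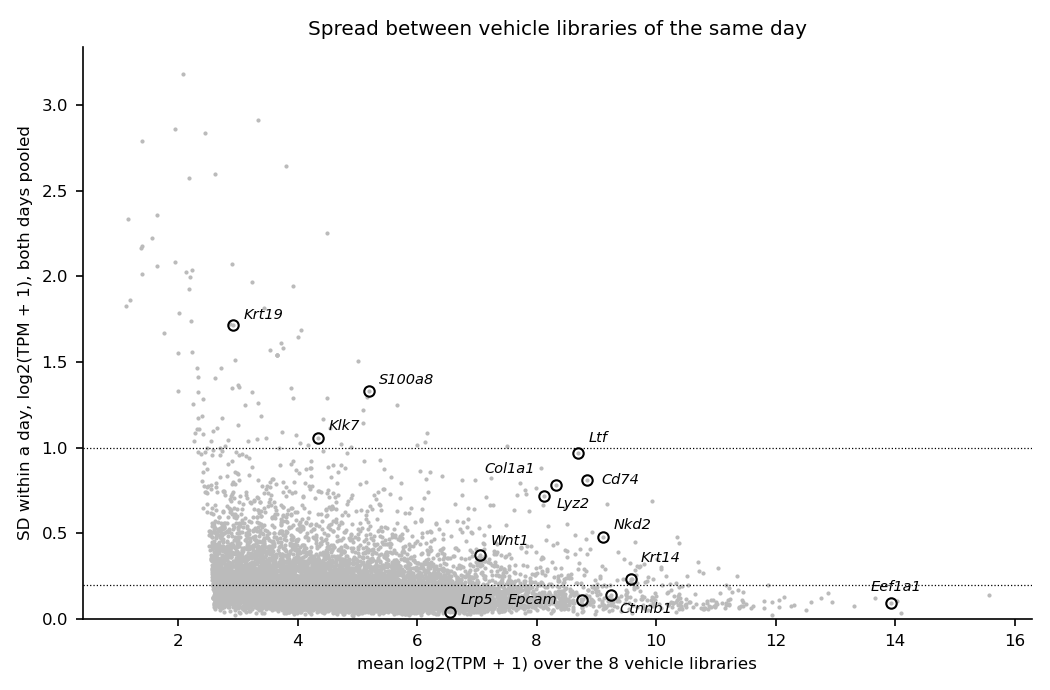
Within-day SD of log2(TPM + 1), pooled over both days, against the mean log2(TPM + 1) of the 8 vehicle libraries, 1 point per gene with a mean of at least 5 TPM (11489 genes). Dotted lines mark an SD of 0.2 and of 1; Wnt1 lay at 0.37, Krt19 at 1.72 and Lrp5 at 0.04.

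The change from day 4 to day 8 was also taken in the tumours given E7386, which share no libraries with vehicle. At 25 mg/kg 0 genes passed (smallest adjusted p 0.349, limma) and 999 (6.35%) had an unadjusted p under 0.05. A test of the difference between the vehicle change and that change called 0 genes (smallest adjusted p 0.566; 435 higher, 2.76%, and 375 lower, 2.38%, at an unadjusted p under 0.05, or 5.15% in all). Without day 8 vehicle replicate 3 it called 1, the predicted gene Gm3650. Over all genes tested the 2 changes correlated with Pearson's r of 0.19, across genes, which are not independent, and 56.4% had the same sign. For the 1749 genes at an unadjusted p under 0.05 in vehicle, r was 0.49 and 66.5% had the same sign. Some of the 40 lists are given side by side. The hypoxia list was positive in 24 of 25 in vehicle and 5 of 25 at 25 mg/kg (median -0.06), the luminal list in 23 and 11 of 25, and cholesterol synthesis was negative in 19 and 16 of 20 (median -0.09). Immediate early genes were positive in 15 and 8 of 20. Chaperones of the endoplasmic reticulum were positive in 3 and 2 of 17, Wnt targets in 3 and 4 of 18, and collagen and matrix genes in 3 and 7 of 30. Differences between the doses were not shown to pass for any gene.

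At 50 mg/kg 935 genes (5.94%) passed between the days. The change differed from that in vehicle for 226 genes (1.44%; limma), 171 (1.09%) with a higher and 55 (0.35%) with a lower change in vehicle. The split was 96 and 67 with TMM scaling and 98 and 59 with quantile normalization. The count was 92 without day 4 vehicle replicate 1, 143 without day 4 replicate 2, 140 without day 4 replicate 3, 113 without day 8 replicate 2 and 601 without day 8 replicate 3. Asns, asparagine synthetase, averaged 25.5 and 22.5 TPM in vehicle and 166 and 47.5 TPM at 50 mg/kg (1.61, SE 0.22; adjusted p = 0.000617).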

How the data were processed

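Column-purified total RNA was made into strand-specific libraries, per the labels' protocols. The submitters' processing notes name bcl2fastq; Trimmomatic 0.36; STAR at 2.5.0c; RSEM at 1.2.31; and mm10 (GRCm38) as the genome. The annotation release and strand setting were not stated. The authors deposited TPM values for 47729 genes, which keep no depth. GENCODE M21 held 47224 of the identifiers and gave coordinates and overlaps; promoters came from RefSeq.

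Values were taken as log2(TPM + 1), which understates changes of low genes, and 15736 genes that reached 1 TPM in 4 or more of the 24 libraries were tested. Means of the 6 groups were fitted with limma 3.58.1 in R 4.3.3 (intensity trend, 18 residual degrees of freedom), two-sided, with Benjamini-Hochberg adjustment over all genes at 0.05. The code was tested on simulated data. For each direction, up to 12 genes of at least 5 TPM were named: those past the threshold or, with none, the smallest p without overlap between the days. The 12 genes of widest within-day spread, the 15 most abundant, and up to 6 in each direction from the comparison with each dose were also named, with fixed genes of the pathway and tissue and, per list, the members of smallest p or widest spread. Other list members were chosen after their values were seen, as was the ranking of protein-coding genes by spread. Predicted genes and pseudogenes were left out of the day comparison's names. A few genes that the rules name are not reported here. The members and lists were chosen with earlier results of these data known. Alternatives were 2 other scalings, other pseudocounts and filters, library weights, robust variances, a replicate block and leaving out each vehicle library.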

Additional observations from a re-analysis of the deposited data

Results flagged for a closer look

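In 172 groups of 4 libraries, of named genes and of list means, a highest or lowest library was looked for whose gap to the next took up most of the group's range, beyond Dixon's critical value. There were 22. The critical value is set to be passed in about 1 in 20 independent groups. These groups share libraries and some members, and many of the genes were chosen from the same values. The count is therefore not set against chance. Day 8 replicate 4 accounted for 9. It was high for Il1b (30.3 TPM, the others 8.28 to 9.15) and low for Krt8 (203 TPM, the others 349 to 364). Its mean log2(TPM + 1) was high for Wnt ligands and receptors (4.35), p53 targets (5.55), T and NK cells (2.52), B and plasma cells (3.82), dendritic cells (3.04), antigen presentation (6.44) and chemokines (4.39).

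Acta1 was high in day 4 replicate 4 (49.5 TPM) and day 8 replicate 3 (79.6 TPM), as was the skeletal muscle list, at a mean log2 level of 3.37 and 3.68 against 0.69 to 1.19 elsewhere. Day 4 replicate 1 was high for Adgre1, a macrophage marker (14.4 TPM), and for the luminal (5.54) and T and NK cell (1.98) lists. Day 4 replicate 3 was high for skin and hair genes (3.37). Day 4 replicate 4 was high for Snhg5 (65.6 TPM) and low for neutrophil markers (1.85). On day 8, replicate 3 was low for Sik1 (64.7 TPM) and for basal markers (6.84), and replicate 2 low for Sox13 (108 TPM).

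The change between days differed between vehicle and 50 mg/kg for 226 genes by limma's test of the difference (92 to 601 with 1 vehicle library left out). On the log2 scale the vehicle change was above that at 50 mg/kg by 2.65 for Stc2 (stanniocalcin), 2.03 for Slc6a9 (a glycine transporter), 1.67 for Atf5, 1.61 for Asns, 1.59 for Ednrb (an endothelin receptor) and 1.56 for Aldh1l2. The difference was -1.95 for Csn3, -1.93 for Dapl1, -1.64 for Gpx2, -1.58 for Idi1 and -1.57 for Fgfbp1. Slc6a9, Atf5, Aldh1l2 and Gpx2 overlap transcribed genes on the opposite strand and are uncertain.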

How the results depend on the processing

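For vehicle day 8 against day 4 the count of genes past the threshold was 0 in the fit reported and 5 with library weights; leaving out 1 library gave 0 to 1, and the replicate block 0 (smallest adjusted p 0.636 with the 8 vehicle libraries alone). The replicate numbers are not taken to pair the libraries: correlations of same-numbered deviations ran from -0.32 to 0.11, and no day 4 library correlated best with its own number. Against 25 mg/kg, leaving out 1 library gave 0 to 1. Against 50 mg/kg the count was 226, 745 with weights, 343 with the replicate block and 92 to 601 with 1 library left out. List medians above 0 numbered 17, 11 with weights and 8 to 21 with 1 left out. The median within-day SD was 0.18, 0.20 at pseudocount 0.1, 0.13 at pseudocount 5 and 0.16 to 0.19 with 1 left out. The difference in mitochondrial share ran from -0.58 to 0.0513 with 1 left out. With weights Lgr5 was -0.0697 and Adgre1 -0.21, both reversed. The cause was not tested.

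Of 830 values of 44 named genes over 19 settings, 815 kept direction and side of the threshold, 12 reversed and 3 passed with weights (Atf3 1.09, Sik1 0.66, Nfkbia 0.78). With 1 library left out, reversals gave ranges of -0.62 to 1.92 for Acta1, -0.0437 to 0.28 for Wnt1, -0.00453 to 0.30 for Lef1, -0.13 to 0.27 for Lgr5, -0.0319 to 0.18 for Krt5, -0.16 to 0.32 for Adgre1 and -0.29 to 0.24 for Pecam1. Of 759 list medians 5 moved by more than the spread, and the mast cell list had no member left at 5 TPM. TPM without depth limits what can be said of genes near the filter.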
